A study of Mus musculus with 6 samples.

Results

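The genes described here were 10 RNAs by which enteroendocrine cells of the gut are told apart, namely Gip, Ghrl, Nts, Pyy, Cck, Sct, Gcg, Sst, Tac1 and Tph1, out of 32285 features counted. They were taken by symbol and followed in barcodes in which at least 3 of 6 endocrine genes (Chga, Chgb, Scg5, Neurod1, Pcsk1n and Cpe) had at least 1 unique molecular identifier (UMI, a tag that marks 1 captured RNA molecule). This gate held 376 of the 60431 barcodes with at least 200 genes, and none of the 10 hormone genes was used to set it. Droplet single-cell RNA libraries had been made from mucosa of the small intestine, from 3 control littermates and 3 mice with an intestinal epithelial deletion of HuR (IE-HuR-/-), 1 library for each animal. The controls carried the floxed HuR alleles (HuR fl/fl) without Cre. In the IE-HuR-/- mice the same alleles were combined with Cre under the villin promoter, which is active in the intestinal epithelium, so that blood-derived and connective tissue cells of the mucosa were not targeted. Mice were on the C57BL/6 background and 6 to 8 wk old, and the epithelium was released with EDTA and TrypLE. The labels stated normal feeding, whereas the methods of the study withheld food for 24 h before tissue was taken, and the feeding state of these animals could not be settled here.

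Enteroendocrine cells are scattered single cells of the crypt and villus epithelium that store peptide hormones or serotonin in granules and release them when nutrients or other luminal signals arrive. They arise from the same stem cells as enterocytes and goblet cells, and a given cell can change the hormones it makes as it moves up the villus. Their subtypes are named after the main product, and the set of subtypes shifts along the length of the intestine. HuR, encoded by Elavl1, is an RNA-binding protein that attaches to AU-rich stretches of messenger RNAs.

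The 6 libraries held 60706 barcodes and 428980031 UMIs, and every barcode had at least 500 UMIs. Gated barcodes were deep, with a median of 23552.5 UMIs (828 to 134875) and 4789 genes, against a median of 2073 UMIs outside the gate. The summed gated UMIs lay between 1296135 and 1985947 per library. No library was a second deposit of another of its label, with chi-square per degree of freedom from 4.59 to 8.49 over genes in the gated cells. Pairs of libraries shared 22 to 44 barcodes, and no shared barcode was in the gate. Libraries labelled IE-HuR-/- did not have less Elavl1 RNA. In gated cells its level was 45.1, 50.7 and 42.8 CPM (UMIs of the gene per 1000000 summed UMIs) in control replicates 1 to 3 and 54.8, 36.3 and 47.6 CPM in IE-HuR-/- replicates 1 to 3. Outside the gate it was at 31.8, 34.1 and 32.0 CPM in control and 35.7, 34.8 and 37.0 CPM in IE-HuR-/- libraries. The deletion was thus not visible in the RNA, and the groups are used as labelled. For the protein, the study reported that HuR staining was nearly lost from small intestinal epithelial cells of IE-HuR-/- mice.

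The gate held endocrine cells by genes it did not use. At least 2 of 12 further enteroendocrine markers, among them Scg2, Isl1, Insm1 and Rfx6, were detected in 308 of 376 gated barcodes (81.9%). The same was true of 5 of 7181 barcodes with T or NK cell markers (0.0696%) and of 48 of 10716 barcodes outside the gate with at least 10000 UMIs (0.448%). At least 2 of 7 epithelial markers were detected in 375 of the gated barcodes. Most barcodes of any kind met this mark, such as 9462 of 9992 in control replicate 1 and 8199 of 9112 in control replicate 3. It therefore does not tell gated cells apart. Members with at least 10 UMIs appeared more often the more gate genes a barcode had. Such a member was present in 7.16% of the 656 barcodes with 2 gate genes, just outside the gate, in 27.8% of the 90 barcodes with 3, and in 100% of the 206 barcodes with all 6. Other RNAs were present too. In gated cells the summed goblet markers lay between 4393 and 18314 CPM in control libraries and between 6354 and 8120 CPM in IE-HuR-/- libraries, and the enterocyte markers between 31350 and 37925 and between 38116 and 48967 CPM, which did not overlap. The glial marker Sox10 was at 0.

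The share of barcodes in the gate overlapped between the groups. Gated cells were 0.731%, 0.625% and 0.680% of barcodes in control replicates 1 to 3 (73, 94 and 62 cells) and 0.470%, 0.640% and 0.570% in IE-HuR-/- replicates 1 to 3 (42, 56 and 49 cells). Exact binomial 95% intervals, which cover counting error only, ran from 0.573% to 0.918% in control replicate 1 and from 0.339% to 0.635% in IE-HuR-/- replicate 1. The mean was 0.679% ± 0.0528 (SD, n = 3) in control and 0.560% ± 0.0855 (SD, n = 3) in IE-HuR-/- libraries. The difference of means gave p = 0.2 in a two-sided exact permutation test, where 3 libraries against 3 allow no p below 0.1. Under a stricter filter, which dropped barcodes below 500 genes or over 25% mitochondrial UMIs, the difference was -0.336 percentage points (exact permutation p = 0.1), and with at least 2 gate genes it turned to 0.434 (p = 0.2), against -0.119 here. The gate itself carried a difference between labels that bears on this share. Outside the gate, the gate gene Chga (chromogranin A, a granule protein) was at 7.27, 8.46 and 6.60 CPM in control and at 23.1, 25.4 and 25.6 CPM in IE-HuR-/- libraries. Its part in the number of gated cells was not tested.

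The 10 hormone genes held between 6.98% and 9.93% of all UMIs in the gated cells of a library, and only 2 gated cells had no UMI of any of them. Sct encodes secretin, which makes the pancreas release bicarbonate, and it was the most widespread, with a UMI in 94.4% of gated cells. Tph1, the rate-limiting enzyme of serotonin synthesis in enterochromaffin cells, had a UMI in 54.8%. Cck, which encodes cholecystokinin, the hormone that contracts the gallbladder, had one in 45.7%. Nts (neurotensin) followed with 41.8% and Pyy (peptide YY, which slows transit and feeding) with 36.2%. Gip, the incretin of the upper intestine, was detected in 27.9% and Ghrl, the hunger hormone ghrelin, in 24.5%. Tac1, the precursor of substance P, had a UMI in 21.3%, Gcg, the proglucagon gene from which L cells make the incretin GLP-1, in 16.0%, and Sst, encoding the inhibitory hormone somatostatin, in 7.45%.

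In droplet data free RNA gives UMIs in cells that do not make an RNA, so the barcodes with T or NK cell markers, which should make none of these hormones, give the background. Their median depth was 4731 UMIs. In them a UMI was found in 15.9% for Nts, 11.9% for Sct, 7.17% for Gip and 5.10% for Cck, and in between 0.237% for Gcg and 3.55% for Sst for the other 6 genes. All 10 shares lay below those of the gated cells, which were deeper. Among the 10716 barcodes outside the gate with at least 10000 UMIs, whose median of 22623.5 UMIs was close to that of gated cells, a Sct UMI was found in 54.0%, a Nts UMI in 23.6% and a Gip UMI in 10.9%, and at least 10 Sct UMIs in 3.63%. A threshold of 10 UMIs is used below for a cell that is positive for a hormone. At most 8 of the 7181 T or NK-marker barcodes reached it for any member (8 for Sct, 1 each for Nts, Cck and Tac1). These barcodes were shallower than gated cells, so their count alone does not show that 10 UMIs clears the background there. In the 10716 deep barcodes outside the gate no member other than Sct reached 10 UMIs in more than 0.121% (Tac1).

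Of the 10 genes 2 differed between labels in the summed gated UMIs. Cck was at 15616, 13103 and 16524 CPM in control replicates 1 to 3 and at 5503, 4277 and 8908 CPM in IE-HuR-/- replicates 1 to 3. Every IE-HuR-/- library lay below every control library, and the log2 fold change was -1.15 (SE 0.217, edgeR quasi-likelihood test, Benjamini-Hochberg adjusted p = 0.00298). Gcg was at 186, 194 and 191 CPM in control and at 544, 288 and 357 CPM in IE-HuR-/- libraries. It was higher in each IE-HuR-/- library than in any control library, with a log2 fold change of 1.18 (SE 0.195, edgeR adjusted p = 0.00543). Both genes are counted against a background in which 8.09% of the 9441 RNAs tested were called, 516 higher and 248 lower in IE-HuR-/- libraries. Without TMM scaling, the step that lines up the bulk of RNAs between libraries, the split was 313 higher and 504 lower, and both hormone genes kept their direction. The Cck call held in all 14 alternatives. The Gcg call was lost when barcodes with 2 gate genes were let in (value 0.67, edgeR adjusted p = 0.123) and when the 5% of gated barcodes with most UMIs were left out (1.71, edgeR adjusted p = 0.337). Few cells carried Gcg, with at least 10 UMIs in 3, 3 and 7 control and 4, 3 and 3 IE-HuR-/- cells.

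**Figure D1:**
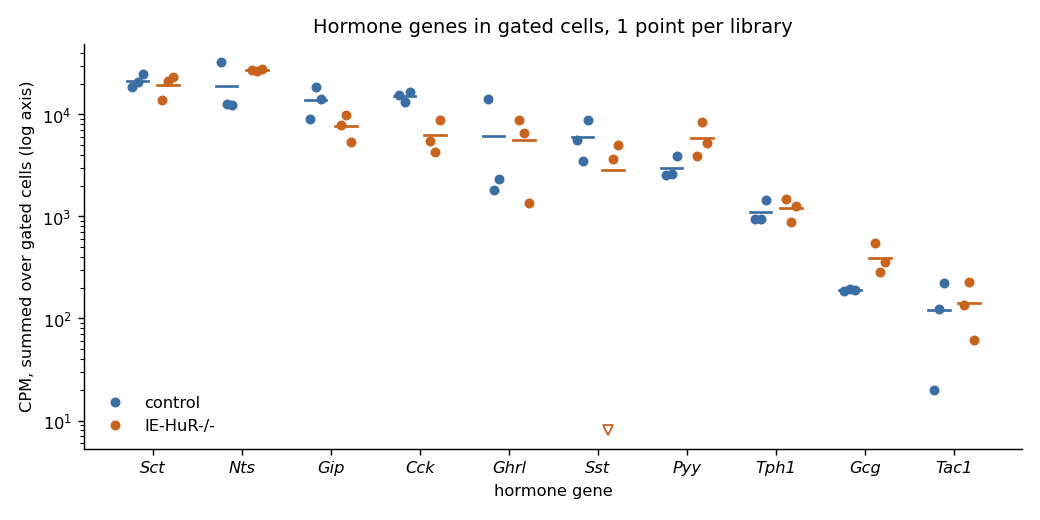
Level of the 10 hormone genes in the summed gated UMIs of each library, in CPM on a log axis, with 1 point per library, a line at the mean of each label and an open triangle for 0 UMIs. Cck sits between 13103 and 16524 CPM in control and between 4277 and 8908 CPM in IE-HuR-/- libraries, Gcg is higher in the IE-HuR-/- libraries, and Sst is at 0 in IE-HuR-/- replicate 1.

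The other members were not called in gated cells. Pyy came closest, at 2574, 2589 and 3895 CPM in control and 3904, 8430.2 and 5240.3 CPM in IE-HuR-/- libraries. The groups touched without overlap, and the log2 fold change of 1.10 (SE 0.313) had an edgeR adjusted p = 0.0757, which passed the threshold of 0.05 in 6 of 14 alternatives. Gip was at 8984, 18537 and 14306 CPM in control and 7919, 9899 and 5331 CPM in IE-HuR-/- libraries, which overlapped (log2 fold change -0.72, SE 0.320, edgeR adjusted p = 0.233). Nts turned on 1 library. It was at 32405, 12717 and 12414 CPM in control and 27550.4, 26938 and 27886 CPM in IE-HuR-/- libraries, so control replicate 1 alone stood above the IE-HuR-/- range. Its log2 fold change was 0.66 (SE 0.344, edgeR adjusted p = 0.307) with that library and 1.25 (edgeR adjusted p = 0.00244) without it.

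The levels of Sct, Tph1, Ghrl, Tac1 and Sst overlapped between labels. Sct was at 18684, 20929 and 24803 CPM in control and 13877, 21231 and 23048 CPM in IE-HuR-/- libraries, with a log2 fold change of -0.02 (SE 0.210). Tph1 was at 940.1, 951 and 1465 CPM in control and 1485, 874 and 1273 CPM in IE-HuR-/- libraries (0.24, SE 0.202). Neither differed by more than the spread between libraries allows (edgeR adjusted p = 0.978 for Sct and 0.537 for Tph1). Ghrl spread widely within each label, at 14279.9, 1835 and 2314 CPM in control and 8891, 6579 and 1359 CPM in IE-HuR-/- libraries, and its log2 fold change of 0.03 had an SE of 1.19. Tac1 was at 19.8, 123 and 223 CPM in control and 134, 229 and 60.9 CPM in IE-HuR-/- libraries (0.38, SE 0.992). Sst was at 5639, 3461 and 8845 CPM in control, and at 0, 3672 and 4964 CPM in IE-HuR-/- libraries. In IE-HuR-/- replicate 1 no Sst UMI was found among 1296135 UMIs of 42 gated cells. Counting error of UMIs alone allows up to 2.31 CPM in these cells. That limit leaves out the sampling of cells, since at least 10 Sst UMIs were found in only 4, 3 and 4 control cells. With so few somatostatin cells the fit gave a log2 fold change of -0.92 with an SE of 1.89, and a difference was not detectable.

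A summed level joins the number of cells that make a hormone with the amount in each, and the 2 were looked at apart. For Cck, the share of gated cells with at least 10 UMIs was 26.0%, 28.7% and 30.6% in control and 33.3%, 28.6% and 32.7% in IE-HuR-/- libraries. The share overlapped and was not lower in IE-HuR-/- libraries. The median level in those cells was 12887, 34855 and 2425 CPM in control and 2369, 8559 and 4815 CPM in IE-HuR-/- libraries, which also overlapped, with control replicate 3 as low as the IE-HuR-/- libraries. For Pyy the shares were 12.3%, 20.2% and 19.4% against 19.0%, 28.6% and 32.7%, again with overlap.

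For secretin the level within positive cells separated and the share did not. The share of Sct-positive cells overlapped, at 68.5%, 64.9% and 82.3% in control and 81.0%, 69.6% and 73.5% in IE-HuR-/- libraries. The median level in Sct-positive cells was 7035, 8153 and 7143 CPM in control and 17867, 15704 and 13337 CPM in IE-HuR-/- libraries, so that each IE-HuR-/- library lay above each control library (exact permutation p = 0.1, the smallest that 3 against 3 allow, not adjusted over the members). The summed Sct level, given above, overlapped. Ghrl-positive cells were 16.4%, 16.0% and 17.7% of gated cells in control and 14.3%, 12.5% and 10.2% in IE-HuR-/- libraries, without overlap (exact permutation p = 0.1). Tac1-positive cells numbered 0, 3 and 2 in control and 6, 5 and 3 in IE-HuR-/- libraries. As shares of gated cells these were 0%, 3.19% and 3.23% against 14.3%, 8.93% and 6.12%, without overlap (exact permutation p = 0.1). The p for Ghrl and Tac1 were not adjusted over the members either. The shares of the other members overlapped, as did every median other than that of Sct that all libraries allowed. With 10 members compared on shares and on medians, some groups without overlap can arise by chance. The level of Tac1 summed over all gated cells overlapped.

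**Figure D2:**
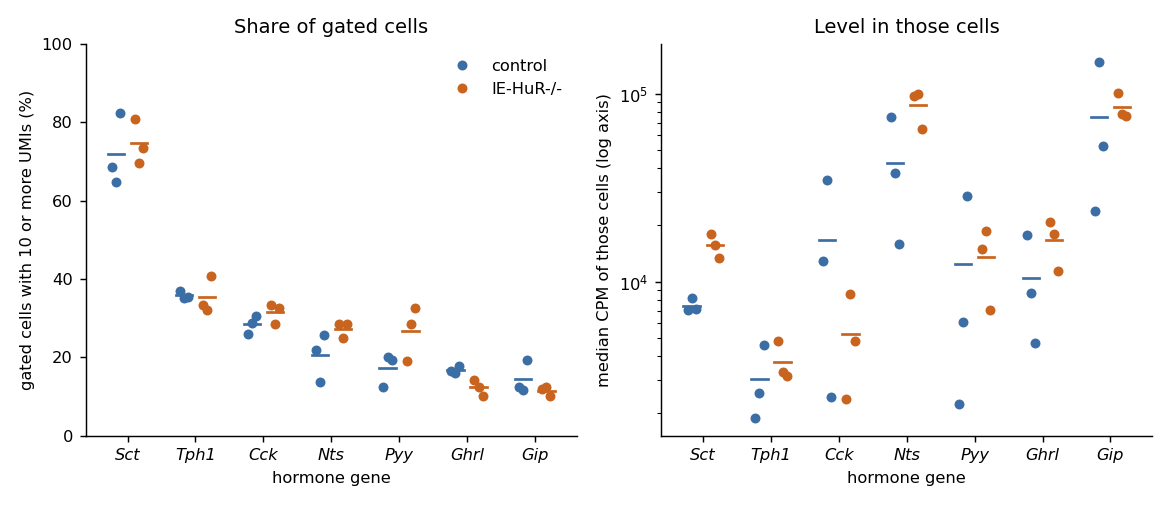
Percentage of gated cells with at least 10 UMIs (left) and median CPM of those cells on a log axis (right) for 7 hormone genes, with 1 point per library and a line at the mean of each label. The median Sct level is 7035 to 8153 CPM in the control libraries and 13337 to 17867 CPM in the IE-HuR-/- libraries, whereas the shares of Sct-positive cells overlap.

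Each gated cell was next assigned to the hormone gene with most UMIs, if it had at least 3 UMIs and no tie. Sct led in 142 of 376 cells (37.8%), Tph1 in 58 (15.4%), Nts in 50 (13.3%), Gip in 37 (9.84%), Cck in 28 (7.45%) and Sst in 15 (3.99%). Ghrl led in 5 cells, Pyy in 4 and Tac1 in 3, Gcg in 0, and 34 cells (9.04%) had no leading gene. Leading genes describe UMI counts and not the amount of each hormone, because RNAs differ in length and capture.

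The cells led by each gene differed in how far that gene prevailed. In Gip-led cells it took a median of 89.2% of the member UMIs, in Sst-led cells 85.8% and in Nts-led cells 84.8%. Cck-led cells were more mixed, with a median of 55.1%, and in 67.9% of them Ghrl also reached 10 UMIs. Among the Sst-led cells 86.7% carried at least 10 Ghrl UMIs. Of the Nts-led cells 94% also had at least 10 Sct UMIs and 38% at least 10 Pyy UMIs, and of the Gip-led cells 64.9% had at least 10 Cck UMIs and 45.9% at least 10 Pyy UMIs. Tph1-led cells were shallow, with a median of 10539 UMIs and 12 Tph1 UMIs, against 25614.5 UMIs and 191 Sct UMIs in Sct-led cells, of which 53.5% also had at least 10 Tph1 UMIs.

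No difference between labels in the leading gene passed a test. Sct led in 27.4%, 33.0% and 37.1% of gated cells in control and in 47.6%, 51.8% and 38.8% in IE-HuR-/- libraries, with means of 32.5% ± 4.87 and 46.1% ± 6.64 (SD, n = 3). Tph1 led in 21.9%, 21.3% and 16.1% of control and in 4.76%, 5.36% and 14.3% of IE-HuR-/- cells, with means of 19.8% ± 3.17 and 8.13% ± 5.34. Nts led in 12.3%, 7.45% and 11.3% of control and 21.4%, 14.3% and 20.4% of IE-HuR-/- cells. For these 3 genes the libraries did not overlap, and the exact permutation p was 0.1, the smallest possible, or 0.333 after Benjamini-Hochberg adjustment over the 10 genes. Every gated cell was also thinned to 2000 UMIs, which left out 13 shallower cells, and a leading gene then needed only 1 UMI. The difference in means was 4.41 percentage points for Sct (exact permutation p = 0.4) and -7.92 for Tph1 (p = 0.2). Without thinning it was 15.6 and -13.9 at 1 UMI, and 13.6 and -11.6 at 3 UMIs. For Nts the thinned difference was 7.66 (exact permutation p = 0.1). Cck led in 13.7%, 10.6% and 6.45% of control and 7.14%, 0% and 2.04% of IE-HuR-/- cells (p = 0.2 in the exact permutation test).

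**Figure D3:**
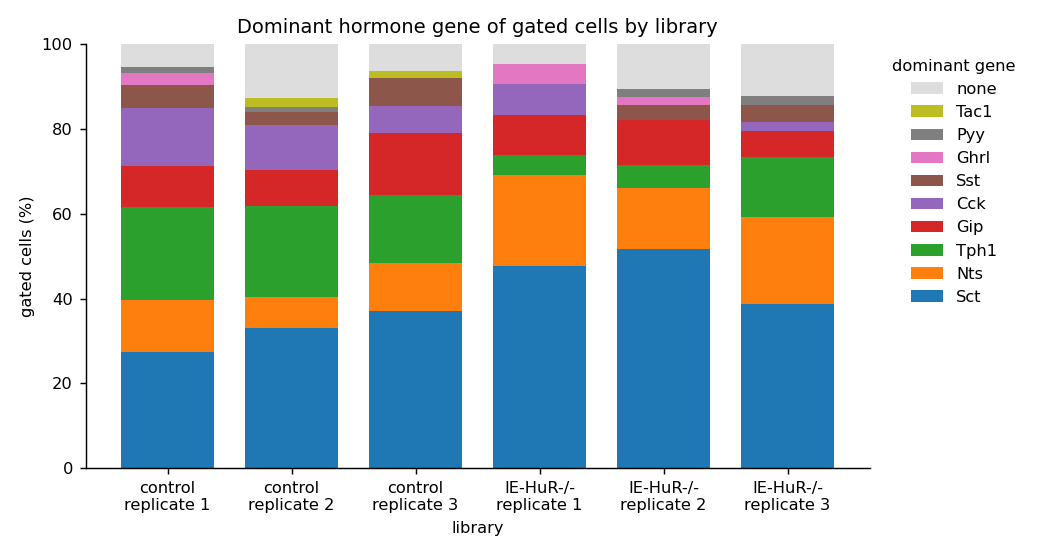
Stacked bars of the percentage of gated cells in which each hormone gene had the most UMIs, 1 bar per library, with cells without a leading gene in grey. Sct led in 27.4% to 37.1% of cells in control and 38.8% to 51.8% in IE-HuR-/- libraries, and Tph1 in 16.1% to 21.9% and 4.76% to 14.3%.

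The same Sct and Tph1 UMIs, counted again within the cells positive for Tph1, describe these cells further and are no independent sighting. Of the 27, 33 and 22 control cells with at least 10 Tph1 UMIs, 66.7%, 57.6% and 54.5% had more Sct than Tph1 UMIs. Of the 14, 18 and 20 IE-HuR-/- cells, 92.9%, 83.3% and 80.0% did. The libraries of the 2 labels did not overlap, a description that was chosen after the leading genes had been seen and was not repeated on thinned counts. Their median Sct level was 5219, 2925 and 7142 CPM in control and 11611, 9823 and 7368 CPM in IE-HuR-/- libraries, whereas their summed Sct level overlapped. The share of Tph1-positive cells was 37.0%, 35.1% and 35.5% of gated cells in control and 33.3%, 32.1% and 40.8% in IE-HuR-/- libraries, which overlapped.

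Most gated cells carried more than 1 hormone RNA. At 10 UMIs or more, 77 cells had no member, 36 had 1, 103 had 2, 77 had 3 and 83 had 4 or more, so that 263 (69.9%) had at least 2. Cells with at least 2 made up 71.3% ± 8.25 (SD, n = 3) of gated cells in control and 69.9% ± 6.43 in IE-HuR-/- libraries (exact permutation p = 0.9). Cells with 4 or more members made up 18.6% ± 2.09 and 27.9% ± 2.40, and cells with exactly 2 made up 33.6% ± 6.03 and 19.3% ± 5.11 (exact permutation p = 0.1 for each, not adjusted). Cells with 0, 1 and 3 members gave exact permutation p = 0.9, 0.9 and 0.5. Median gated depth ran from 15878 UMIs in control replicate 2 to 28105 in IE-HuR-/- replicate 2, and its part in these shares was not tested. Only Tph1, with 17 of 134 positive cells, Sct, with 12 of 271, and Gip, with 5 of 49, were found without another member in more than 1 cell. No positive cell of Ghrl, Pyy, Gcg, Sst or Tac1 was without another member at 10 UMIs.

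Sct, positive in 72.1% of all gated cells, was the shared partner. It reached 10 UMIs in 108 of 111 Cck-positive cells, 84 of 85 Nts-positive cells, all 80 Pyy-positive cells, 54 of 56 Ghrl-positive cells, 115 of 134 Tph1-positive cells and all 23 Gcg-positive cells. Beyond Sct, Pyy and Cck were found together in 52 cells, which is 2.20 times the product of their single shares, Nts and Cck in 50 (1.99 times), Nts and Pyy in 41 (2.27 times), Ghrl and Cck in 39 (2.36 times) and Gip and Cck in 29 (2.00 times). The pairs without Ghrl join hormones of the L, N, I and K cell names of the older nomenclature. All 23 Gcg-positive cells were also Cck-positive (3.39 times the product), and 15 were Ghrl-positive (4.38 times).

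Somatostatin and the enterochromaffin genes had pairs that were not found at 10 UMIs. Of 15 Sst-positive cells 13 were Ghrl-positive (5.82 times the product), and 0 were positive for Cck, Nts or Tph1. All 19 Tac1-positive cells were Tph1-positive (2.81 times), and 0 were positive for Nts, Gip, Ghrl or Pyy. At 2 UMIs or more Sst met Cck in 2 cells and Tac1 met Pyy in 6, Nts in 5 and Gip in 2. Substance P is a known product of a class of enterochromaffin cells. Tph1 met Cck in 20 cells (0.506 times the product) and Nts in 14 (0.462 times), below what the single shares give. Gip and Ghrl met in 5 cells (0.685 times). All these ratios describe cells pooled over 6 libraries that differ in depth, and a barcode that holds a pair of cells would also add to them. At 2 UMIs or more, 25 of the 45 pairs were found in at least 5% of gated cells.

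**Figure D4:**
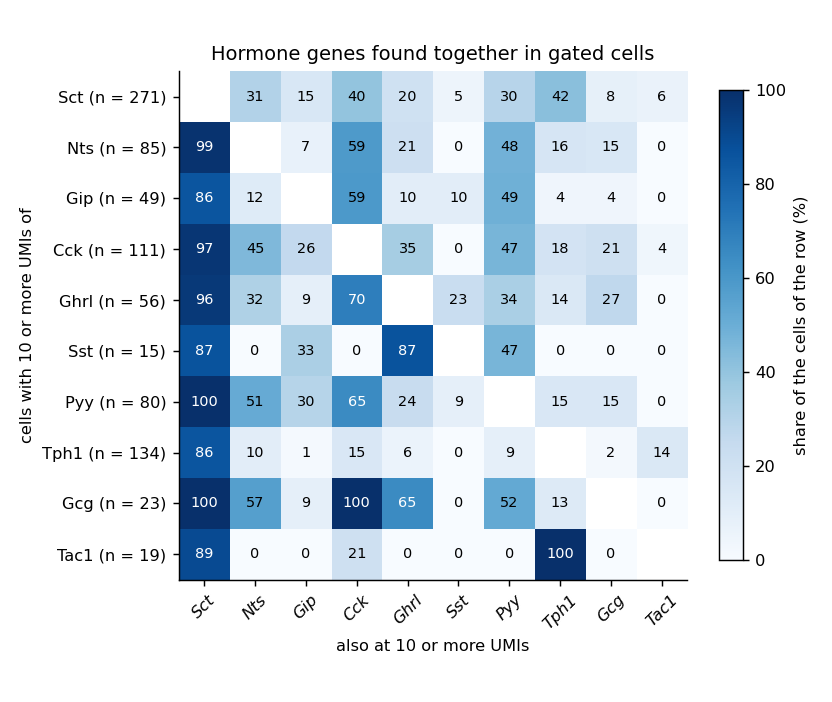
Heat map of the 10 hormone genes in gated cells, where each row is the cells with at least 10 UMIs of 1 gene and each square the percentage of them that also had at least 10 UMIs of the gene in the column. The Sct column is dark in every row, from 85.7% for Gip to 100% for Pyy and Gcg, and the Sst row is at 0 for Cck, Nts and Tph1.

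The genes whose levels followed each member most closely across the 376 gated cells were found by Pearson's r of log2(CPM + 50), among genes with a UMI in at least 5% of gated cells. They are a description over cells that share libraries and differ in depth. Gip went with Cnr1, the cannabinoid receptor (r = 0.823), Fabp5, a fatty acid-binding protein (0.819), and Sphkap (0.771). Sst had the highest value of all, with Iapp, the amylin gene (0.890), followed by Asic5 (0.875) and the potassium channel gene Kcnk2 (0.862), values that rest on the libraries other than IE-HuR-/- replicate 1, which had no Sst. Ghrl went with Kcnk16 (0.759), another potassium channel gene, and with Maged2 (0.587, from 0.0745 to 0.840 in single libraries) and Ttr (0.585). Nts was nearest to Qpct (0.763), the enzyme that forms the pyroglutamate at the start of peptides such as neurotensin, then to Adgrd1 (0.686) and Rassf9 (0.632). Tph1 was nearest to Stxbp5l (0.737), Slc38a11 (0.735) and the keratin gene Krt7 (0.719).

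Cck was nearest to the granule protein gene Scg2 (0.762), the transcription factor gene Etv1 (0.662) and Ffar1, a receptor for long-chain fatty acids (0.641). Gcg had the same Etv1 (0.489) and Scg2 (0.468) among its nearest genes, with Parm1 (0.475). Pyy was nearest to Gpr119, a lipid receptor (0.619), Car8 (0.595) and Gpr22 (0.583). Sct went with Myl7 (0.752), Fxyd3 (0.714) and Selenom (0.677). Tac1 was nearest to Tpbg (0.631), Ucn3, encoding a urocortin (0.576), and Rab3c (0.576).

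Sequences are shown for Cck and Gcg, the genes called in gated cells, and for Tac1, which differed most outside them. The promoters are from RefSeq on GRCm38.p6 and run from 250 bases before to 50 bases after the start of the gene, 5′ to 3′ on the strand of the gene. The capitals mark E-boxes (CANNTG, the same on both strands), the letters bound by basic helix-loop-helix factors such as Neurod1, one of the gate genes. The Cck promoter (chr9:121495645-121495944, minus strand) held 3, the Gcg promoter (chr2:62483604-62483903, minus strand) 3 and the Tac1 promoter (chr6:7554811-7555110, plus strand) 2. Of all 32851 promoters of this length 72.3% held at least 1 E-box, 39.6% at least 2 and 17.6% at least 3. A match is a run of letters and not a measured site.
Cck: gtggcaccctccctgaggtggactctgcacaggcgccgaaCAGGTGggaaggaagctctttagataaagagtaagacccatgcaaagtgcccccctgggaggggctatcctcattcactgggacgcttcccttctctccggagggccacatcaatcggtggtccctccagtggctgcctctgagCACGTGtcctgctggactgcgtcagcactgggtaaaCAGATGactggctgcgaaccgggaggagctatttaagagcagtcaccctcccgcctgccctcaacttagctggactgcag
Gcg: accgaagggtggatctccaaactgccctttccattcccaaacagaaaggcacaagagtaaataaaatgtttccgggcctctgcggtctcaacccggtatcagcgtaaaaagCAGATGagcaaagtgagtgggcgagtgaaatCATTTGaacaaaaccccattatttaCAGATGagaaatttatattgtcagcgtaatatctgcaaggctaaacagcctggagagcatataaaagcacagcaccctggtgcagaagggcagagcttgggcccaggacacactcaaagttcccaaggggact
Tac1: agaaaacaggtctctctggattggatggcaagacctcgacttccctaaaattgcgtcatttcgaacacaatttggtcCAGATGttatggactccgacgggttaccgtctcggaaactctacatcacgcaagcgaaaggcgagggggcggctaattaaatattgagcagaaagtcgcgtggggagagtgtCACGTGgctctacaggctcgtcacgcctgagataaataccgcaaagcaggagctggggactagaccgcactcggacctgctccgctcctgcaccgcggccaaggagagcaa

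The 3′ untranslated parts were read from GENCODE M21 on GRCm38 for ATTTA, the short core of AU-rich elements, on the strand of the RNA. Cck and Gcg held 1 and Tac1 held 2, while Nts and Sct held 1, Tph1 3 and Gip, Ghrl, Pyy and Sst 0. Among genes with a 3′ untranslated part of 0.8 to 1.25 times the same length, at least 1 was found in 40.7% for Cck, 47.6% for Gcg and 54.9% for Tac1, and at least 2 in 26.0% for Tac1. The 30-base windows around them are shown with ATTTA in capitals, at chr9:121489956-121489985 (minus strand) for Cck, chr2:62474541-62474570 (minus strand) for Gcg and chr6:7562497-7562526 (plus strand) for Tac1. The letters of these windows carry no measurement of HuR binding.
Cck: gttttgagtatctATTTAttaagtccccaa
Gcg: gtatcaagaatagATTTAaataaatatttc
Tac1: tgtgcgctatgaggaatgattATTTATTTA

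The genes around the hormones were read in the same gated cells, where 8.09% of all RNAs were called. Of 20 transcription factor genes of the enteroendocrine lineage 17 were tested, and 2 fell, Sox4 (log2 fold change -0.70, edgeR adjusted p = 0.00246), a factor of early secretory progenitors, and Nkx2-2 (-0.66, edgeR adjusted p = 0.0259), needed for several subtypes. All 22 genes of prohormone processing and granules were tested, and 2 rose and 4 fell, so that 6 of 22 were called. This was a larger share than over all RNAs, with no comparison to RNAs of like level. Gch1, the first enzyme of the cofactor of serotonin synthesis, rose by 0.75 (edgeR adjusted p = 0.00129) and Qpct by 0.51 (0.0351). Scg2 (-0.62, edgeR adjusted p = 0.00638), a granin, and the vesicle release genes Snap25 (-0.60, 0.0157) and Cadps (-0.62, 0.0216) were lower, as was Pam (-0.46, 0.0299), which amidates peptides such as cholecystokinin and is named here after its value was seen. Outside the gate 17 genes of this list were tested, and 4 rose and 5 fell, where 55.7% of all RNAs were called. Gch1 (0.64), Qpct (0.48), Scg2 (-1.01), Snap25 (-1.115) and Pam (-0.62) were called there in the same direction, and Cadps was not tested there. Of 20 other gut hormones and peptides 7 were tested in gated cells, and Edn3 (endothelin 3) rose (1.52, edgeR adjusted p = 0.0019), as it did outside the gate (0.83). No call was made in gated cells among 14 tested nutrient and signal receptor genes (3 at an unadjusted p under 0.05) or 5 tested hormone receptor genes (1 at an unadjusted p under 0.05). Over all RNAs 2081 of the 9441 tested had an unadjusted p under 0.05, so these counts were not raised. The list medians were -0.16, -0.17, 0.17, -0.12 and -0.24 on the log2 scale in this order, against -0.03 over all RNAs tested.

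Some genes that mark the lower or the upper small intestine had other levels in the IE-HuR-/- gated cells, and others did not. They were chosen after the hormone values had been seen. The ileal bile acid genes Fabp6 (472, 423 and 16.2 CPM in control, 1515, 1116 and 733 CPM in IE-HuR-/- libraries) and Slc10a2 (7.15, 25.6 and 15.1 against 33.2, 32.2 and 101 CPM) lay above the control range in each IE-HuR-/- library, but neither passed (edgeR adjusted p = 0.419 and 0.239). The bile acid exporter gene Slc51b passed (log2 fold change 0.93, edgeR adjusted p = 8.1e-05). The proximal folate transporter gene Slc46a1 was lower, at 129, 129 and 87.6 against 69.4, 70.5 and 80.5 CPM (log2 fold change -0.52, edgeR adjusted p = 0.0422). Slc40a1 (0.06, edgeR adjusted p = 0.960), Gata4 (-0.12, 0.716), Onecut2 (-0.50, 0.140), Nr1h4 (0.0028, 0.997) and Slc51a (0.41, 0.118) did not pass. Outside the gate, where 55.7% of all RNAs were called, Slc10a2 (log2 fold change 1.195), Fabp6 (2.05), Slc51b (0.44) and Fgf15 (1.87) were called higher. Slc46a1 (-0.90), Slc40a1 (-1.76), Onecut2 (-0.48), Gata4 (-0.19) and Cybrd1 (-2.05) were called lower there, and Nr1h4 and Slc51a were not called. Fgf15 and Cybrd1 were not tested in gated cells. The inflammation and antimicrobial genes Saa1 (0, 0 and 0.522 against 161, 184 and 146 CPM) and Reg3b (1151, 457 and 466 against 10429, 7112 and 5794 CPM) were higher as well, whereas Nos2 did not pass (0.72, edgeR adjusted p = 0.648). Outside the gate Saa1 was at 4.18, 2.27 and 4.95 against 238, 279 and 245 CPM. Reg3b was there at 1674, 1921 and 2058 against 8597, 8908 and 9073 CPM, and Fabp6 at 575, 646 and 689 against 2553, 2647 and 2681 CPM. The part of free RNA in the gated levels of these genes was not tested. The part of the regional and inflammation genes in the Cck and Gcg differences was not tested either.

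Outside the gate the hormone genes were far lower, except Sst in IE-HuR-/- replicate 1, at 0 CPM in gated cells and 3.35 CPM outside. The gated level was a median of 2367 times the outside level for Ghrl, 1121 for Pyy, 1079 for Cck, 804 for Sst, 781 for Nts, 741 for Gip, 645 for Gcg, 609 for Tph1 and 336 for Sct. For Tac1 the labels were apart, at 257, 410.0 and 1307 times in control and 26.0, 46.2 and 12.7 times in IE-HuR-/- libraries. Of the 10 genes 4 were called outside the gate, Cck and Sst lower and Tac1 and Sct higher in IE-HuR-/- libraries, where 55.7% of all 14900 RNAs tested were called, so that the count is no more than the background share. Cck was at 14.8, 18.8 and 15 CPM in control and 4.08, 5.0 and 4.95 CPM in IE-HuR-/- libraries (log2 fold change -1.79, SE 0.128, edgeR adjusted p = 1.57e-05). In T or NK-marker barcodes Cck was at 18.0, 14.3 and 15.6 against 4.66, 5.83 and 6.68 CPM, close to the level of all barcodes outside the gate. The part of free RNA in the Cck difference was not tested. Sst was at 6.4, 10.4 and 9.47 against 3.35, 5.04 and 5.15 CPM (-0.95, SE 0.279, edgeR adjusted p = 0.0442), and its call was lost in 8 of 13 alternatives. Gip (16.0, 25 and 19.1 against 7.38, 14.1 and 7.20 CPM) and Pyy (1.81, 3.77 and 3.09 against 7.55, 5.11 and 5.33 CPM) did not pass (edgeR adjusted p = 0.0723 and 0.0648).

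Over all barcodes, gated or not, 2 of the 10 genes were called, Cck (log2 fold change -1.28, SE 0.327, edgeR adjusted p = 0.0327) and Gcg (1.03, SE 0.234, edgeR adjusted p = 0.02), where 53% of 15288 RNAs were. These calls were lost in 4 and 3 of 11 alternatives.

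Of the 10 members Tac1 had the largest fold change outside the gate. It was at 0.0770, 0.300 and 0.171 CPM in control and at 5.16, 4.95 and 4.81 CPM in IE-HuR-/- libraries (log2 fold change 4.71, SE 0.269, edgeR adjusted p = 6.19e-07, called in all alternatives). At least 1 Tac1 UMI was found in 6, 25 and 11 control and 107, 138 and 118 IE-HuR-/- barcodes, at least 3 in 0, 1 and 0 and in 30, 33 and 25, and at least 10 in 0, 0 and 0 and in 6, 4 and 5. Gated cells held on average 90.5% of all Tac1 UMIs in control and 39.2% in IE-HuR-/- libraries, with 36.7%, 59.1% and 21.9% in IE-HuR-/- replicates 1 to 3. In T or NK-marker barcodes Tac1 was at 0, 0.268 and 0 against 1.60, 1.65 and 3.58 CPM.

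The 88 IE-HuR-/- barcodes outside the gate with at least 3 Tac1 UMIs were deep, with a median of 26443.5 UMIs, and had high levels of ileal and inflammation genes. Slc10a2, the ileal bile acid transporter gene, had a UMI in 89.8% of them and was at 1350.3 CPM, against 81.7 CPM in the other barcodes outside the gate of the same libraries. Fabp6 was at 21673 against 2314 CPM, Saa1 at 5075 against 175 CPM, Reg3g at 26499 against 2979 CPM and the amino acid transporter gene Slc6a14 at 367 against 13.5 CPM. The summed neuronal and glial markers were no higher, at 0.329 against 0.470 CPM, and the enteroendocrine markers not used by the gate were at 10.2 against 5.97 CPM. The summed goblet markers were at 44377 against 14605 CPM and the enterocyte markers at 26410 against 52911 CPM. Since these barcodes were picked by Tac1 in 1 group, the values describe them and were given no test.

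Barcodes outside the gate with at least 3 Slc10a2 UMIs were then taken from both labels, a choice made after these values had been seen. Of the 88 barcodes above 76 were among them, so that the Tac1 values here describe the same barcodes and are no independent support. They numbered 202, 249 and 152 in control and 274, 263 and 262 in IE-HuR-/- libraries. Tac1 was at 0 in all 3 control libraries, with 0 UMIs among 14873413, and at 33.3, 30 and 31.0 CPM in IE-HuR-/- libraries, with 677 UMIs. Against the limit that 0 counts allow over the control group (3 counts, 0.202 CPM) the pooled IE-HuR-/- level of 31.4 CPM was at least 155.5-fold higher. In these barcodes 7 members were tested and 4 were called, where 45% of 9572 RNAs were. Tac1 was among the 4, but it passed the filter on low counts only through the IE-HuR-/- libraries. The barcodes had also been chosen after its values were seen, so its call was set in advance and is no support. With TMM scaling 2214 RNAs were called higher and 2094 lower, and without it 1068 and 4311. The median log2 fold change over all RNAs was -0.027 with TMM scaling and -0.29 without it. Sct was at 68.0, 76.2 and 82.8 CPM in control and at 169.5, 154.6 and 151.9 CPM in IE-HuR-/- libraries (log2 fold change 1.34, SE 0.0767, edgeR adjusted p = 1.06e-13). Pyy was higher by 1.52 (edgeR adjusted p = 0.00369) and Cck lower (-1.47, edgeR adjusted p = 0.00278), both at levels of 0.446 to 5.29 CPM. The Pyy call was lost with DESeq2 (adjusted p = 0.0709). In each library both lay below their T or NK-marker levels, which for Pyy were 1.14, 4.42 and 1.98 against 8.16, 5.70 and 6.57 CPM. The part of free RNA in these 2 differences was not tested. In the barcodes without 3 Slc10a2 UMIs, where 55.3% of 14792 RNAs were called, the log2 fold change of Tac1 was still 2.87 (edgeR adjusted p = 3.24e-06).

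Sct was also found outside the gate, in barcodes with goblet or tuft markers and in barcodes with neither. Over all barcodes outside the gate it was at 45.4, 56.1 and 63.3 CPM in control and 86.9, 74.6 and 76.9 CPM in IE-HuR-/- libraries (log2 fold change 0.54, SE 0.159, edgeR adjusted p = 0.0451), a call that was lost in 8 of 13 alternatives. At least 10 Sct UMIs were found in 49, 52 and 47 control and 88, 82 and 85 IE-HuR-/- barcodes outside the gate, whereas no other member reached 10 UMIs there in more than 6 barcodes of a library. Goblet-marker barcodes held 99 of the 148 such control barcodes and 114 of the 255 such IE-HuR-/- barcodes, and tuft-marker barcodes 35 and 20. Goblet-marker barcodes were left out of the tuft-marker group by its definition, so no barcode was counted in both. Most of the excess of IE-HuR-/- over control barcodes thus lay in barcodes that met neither marker threshold. In 1228 barcodes with at least 5% of their UMIs from goblet markers Sct was at 184, 193 and 202 CPM in control and at 319.7, 297 and 312 CPM in IE-HuR-/- libraries. The goblet-marker libraries of the 2 labels were apart (log2 fold change 0.87, SE 0.091, edgeR adjusted p = 5.39e-07, and 0.68 without TMM scaling, edgeR adjusted p = 1.2e-05). Among them 7 members were tested and 4 were called, where 26.7% of 9095 RNAs were. Tac1 was also higher (0, 0.544 and 0 against 7.45, 11.5 and 12.0 CPM), but passed the filter only through IE-HuR-/- libraries. Cck was lower, at 5.54, 5.81 and 5.71 against 2.31, 1.28 and 1.96 CPM (-1.40, edgeR adjusted p = 0.00288). Nts was higher, at 13.5, 12.9 and 9.14 against 15.4, 15.4 and 16.5 CPM (0.58, edgeR adjusted p = 0.0210). In each library Cck and Nts lay below their T or NK-marker levels, which were 28.9 to 46.4 CPM for Nts. The part of free RNA in both differences was not tested. The Cck call was lost with DESeq2 (adjusted p = 0.0557), and the Nts call in 4 of 10 alternatives, DESeq2 (0.132), no TMM (0.0911) and without control replicate 3 (0.0915) or IE-HuR-/- replicate 3 (0.0649). In goblet-marker barcodes 1313 RNAs were called higher and 1111 lower, and without TMM scaling 732 and 2287. Tuft-marker barcodes had Sct at 189, 218 and 159 CPM in control and 137, 334 and 176 CPM in IE-HuR-/- libraries, with overlap.

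**Figure D5:**
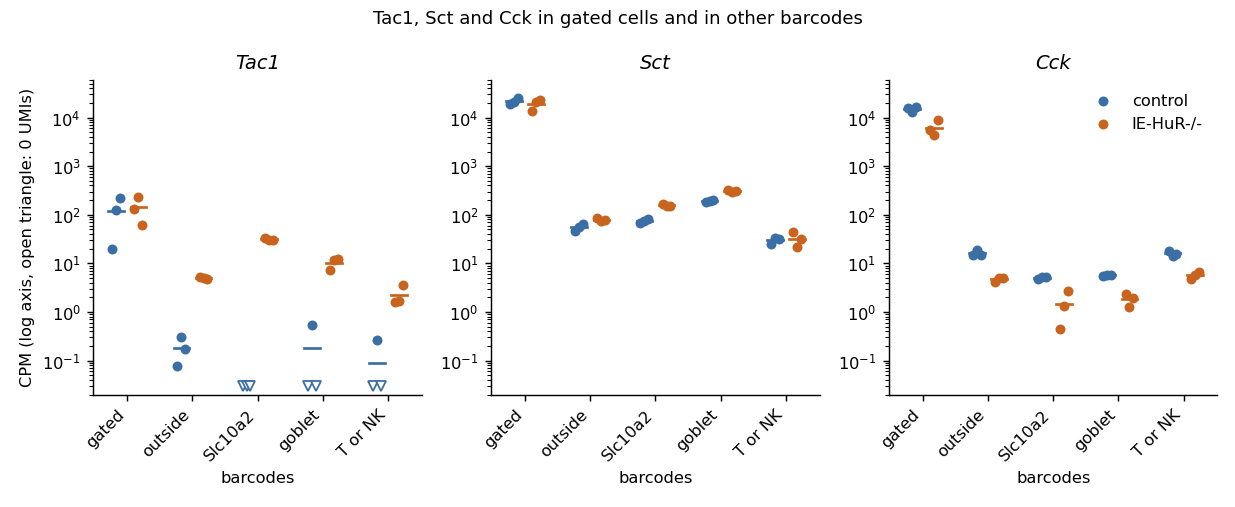
Level of Tac1, Sct and Cck in CPM on a log axis in gated cells, all barcodes outside the gate, and the Slc10a2-positive, goblet-marker and T or NK-marker barcodes, with 1 point per library, a line at the mean and open triangles for 0 UMIs. Tac1 is at 30 to 33.3 CPM in Slc10a2-positive barcodes of IE-HuR-/- libraries and at 0 in control, and Sct in goblet-marker barcodes is at 184 to 202 CPM in control and 297 to 319.7 CPM in IE-HuR-/- libraries.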

How the data were processed

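Per the labels, mucosal cells of the small intestine of 3 control and 3 IE-HuR-/- mice were sequenced on the 10x Genomics platform, with a 5′ kit in the labels and a 3′ V2 kit in the methods. The deposited values are UMI counts for each gene in each barcode, not normalized and not pooled, from Cell Ranger 6.1.2 by the file headers (an earlier version is given in the methods) on mm10 by the submitters' processing notes (the methods name a human reference).

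Barcodes with at least 200 genes were kept. The members, lists and tests were chosen with earlier results of these data known. The goblet-marker and Slc10a2 groups and the regional genes were added after the data had been seen. No doublet caller was run, and the 5% of gated barcodes with most UMIs were left out in an alternative. UMIs were summed per library and fitted by the robust quasi-likelihood method of edgeR 4.0.16 (R 4.3.3) on group alone, after TMM scaling and filterByExpr (minimum count 10, minimum total count 15), with Benjamini-Hochberg adjusted p under 0.05 called. Fold changes are IE-HuR-/- over control. Library shares were set against each other by two-sided exact permutation tests over libraries. Fits were tested on simulated counts for the gated cells, where 183 of 183 tested RNAs changed by 2 on the log2 scale were recovered among 9399 and 7 of 190 calls were false. All simulated RNAs had 1 common dispersion, so this recovery does not carry over to variable members such as Ghrl (SE 1.19) and Sst (SE 1.89). Alternatives were DESeq2 1.42.0, no TMM, no filter on low counts, gates of at least 2 or 4 genes, stricter barcode filters, a replicate block and leaving out each library. Named genes were the 10 members, the gate genes, Elavl1, up to 4 called genes of each list with the smallest adjusted p, and the 3 nearest genes of each member. Each library is 1 animal, and depth limits rare members, since 3 counts in gated cells are 1.51 to 2.31 CPM.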

Additional observations from a re-analysis of the deposited data

How the results depend on the processing

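The Cck call in gated cells and the Cck and Tac1 calls outside the gate were kept in each alternative run. The number of RNAs called in gated cells was 764 in the reported fit, 430 with DESeq2, 3150 with at least 2 gate genes, 361 with at least 4, 272 without the 5% of barcodes with most UMIs and 347 to 775 without 1 library. The gated cells held 2 called hormone genes, 1 with at least 2 gate genes and 2 to 4 without 1 library. Outside the gate the number was 4, against 2 without the filter on low counts, 2 with at least 2 gate genes and 2 to 5 without 1 library, and over all barcodes 2, against 1 to 2 without 1 library. The replicate numbers did not pair the libraries (correlations of deviations 0.0539, 0.0314 and -0.0532), and with a replicate block 733 RNAs were called in gated cells and 1 hormone gene over all barcodes. Pairs of hormones in at least 5% of cells fell from 25 to 12 with at least 2 gate genes. The share in the gate was then higher in IE-HuR-/- libraries by 0.434 percentage points, and the difference for Pyy-led cells -0.0117; that for Gip-led cells was 0.352 with at least 4 gate genes and that for Ghrl-led cells -0.0204 to 2.36 without 1 library. In gated cells the log2 fold change of Ghrl was -0.13 without TMM, -0.38 with at least 2 gate genes, -0.11 with stricter barcode filters and -0.43 to 1.57 without 1 library. For Sct it was 0.011 with DESeq2, 0.18 with at least 4 gate genes, 0.044 without the 5% of barcodes with most UMIs and -0.12 to 0.18 without 1 library. With at least 2 gate genes it was -0.0029 for Tac1 (-0.23 to 1.15 without 1 library) and -0.28 for Tph1. Outside the gate Ghrl was at -0.0020 without TMM, -0.00097 without the filter, -0.071 with the replicate block, -0.12 with stricter filters and -0.32 to 0.51 without 1 library. Without 1 library, Nts was at -0.0100 to 0.34, Gcg at -0.61 to 0.27 and Tph1 at -0.56 to 0.030 there. The reversed log2 fold changes belonged to comparisons whose reported fit did not call that gene, and the cause was not tested.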
